A study of Mus musculus with 8 samples.

Results

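Splicing factor genes were taken as the genes whose symbols begin with Srsf, Sf3a, Sf3b, Prpf, Snrp, Snrnp, Hnrnp or U2af, or with Rbm followed by a digit, and that were present in both the HA and the input table. These were 86 of the 8537 genes in both tables. The choice rested on names and on presence in both tables, from which genes of low level had been removed. A gene too low in HA could therefore not be a member. A further 7 genes with such names (Prpf31, Prpf4, Sf3a2, Srsf9, Snrpn, Rbm8a and the pseudogene Rbm6-ps2) were in the input table only and are counted here but not described, and none was in the HA table only. Srsf2, Snrpb and Snrnp35, which were also looked for by name, were in neither table.

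The RNA-Seq compared matured (MII) oocytes of young mice (1 month) and of old mice (retired breeders, 12 to 15 months) on a C57BL/6 background. All mice were RiboTagF/F;Zp3-Cre, in which Cre, driven by the Zp3 promoter in growing oocytes, switches on an HA-tagged ribosomal protein in the oocyte. All females were stimulated with PMSG (5 IU) followed after 48 h by hCG (10 IU), and ovulated oocytes were collected 13 h after the second hormone, so there was no unstimulated group and no group without the tag. Each pool held 200 oocytes, with 2 pools per age from a single experiment, and gave an HA library (mRNA recovered with the tagged ribosomes) and an input library (total mRNA from 10% of the same lysate). A pooled library does not separate a low level in every oocyte from a high level in a few.

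Introns are removed by the spliceosome, which is built on each intron from the U1, U2 and U4/U6.U5 small nuclear ribonucleoproteins (snRNPs). The U1 snRNP recognises the 5′ splice site, U2AF and the U2 snRNP recognise the 3′ splice site and the branch site, and the tri-snRNP then joins and is remodelled into the catalytic form. SR proteins and hnRNP proteins bind the transcript and change which sites are used, and many of them also act on mRNA in the cytoplasm. A fully grown oocyte makes almost no new RNA, and in the matured oocyte proteins are translated from mRNAs stored earlier.

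Reads on the genes of a table numbered 37817382 to 59688578 in the HA and 38276453 to 60052814 in the input libraries. The values are CPM (counts per 1000000 reads of a library, after TMM normalization of the 4 HA and, separately, of the 4 input libraries). The limit that 3 reads allow was 0.0388 to 0.111 CPM in HA and 0.0435 to 0.0788 CPM in input, and it covers counting error only. The old HA libraries stood apart from the young ones in depth after scaling, with TMM factors of 0.896 and 0.715 against 1.3 and 1.2, and 2.89% and 4.11% of the genes of the HA table had no reads in them against 0.112% and 0.865%. The spread of HA over input across all genes (SD of the log2 ratio) was 1.06 and 1.39 in the young pools and 1.96 and 2.24 in the old pools. All 10 oocyte markers (Zp1, Zp2, Zp3, Gdf9 and others) were in both tables, with summed levels of 11347 to 17667 CPM in HA and 9307 to 10519 CPM in input. None of 7 blood cell markers was in either table. Of 12 cumulus and granulosa cell markers, 7 were in the input table (Cyp19a1, Fshr, Has2, Inha, Inhba, Star and Tnfaip6), with a summed level of 24.5 to 157.5 CPM. Of these, 2 (Cyp19a1 and Fshr) were also in the HA table, with 81.6 to 177 CPM. There the old libraries held 81.6 and 83.7 CPM and the young libraries 151.8 and 177 CPM. The rest of the list (Ptx3, Amh, Foxl2, Cyp11a1 and Lhcgr) was in neither table, and the part of these cells in the results was not tested.

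The 86 genes took 0.795% to 0.972% of the reads in the input libraries and 0.974% to 1.17% in the HA libraries. Their mean level ranged from 1.46 to 685 CPM in input, with a median of 33.7 CPM, and from 1.16 to 1111 CPM in HA, with a median of 42.1 CPM. Levels of different genes were compared as CPM per kilobase of merged exon length. Counts were made over whole genes and include intronic reads, so intronic signal raises a gene on this scale. On this scale the input was led by Rbm27, an RNA-binding protein of nuclear RNA decay, with 82.1 to 108.1 CPM per kilobase over the 4 libraries, followed by Prpf8, the central scaffold of the U5 snRNP, with 67.7 to 94.7, and by Hnrnpul2 with 70.7 to 79.8. The ranges of these neighbours overlapped, so their order was not separated by the spread. In HA, Hnrnpul2 (59.3 to 185), Rbm27 (47.4 to 168) and Rbm26 (61.0 to 113), a relative of Rbm27, came first, again with overlapping ranges, and Prpf8 lay in 12th place with 46.5 to 73.0 CPM per kilobase. Another gene covers more than 25% of the exons of 10 of the 86 genes, among them Hnrnpul2, Rbm38, Rbm48, Rbm19, Srsf4, Snrpa1 and Snrpf. Since reads were counted without regard to strand, the levels of those 10 genes are uncertain.

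The first comparison asked which splicing factor mRNAs were taken up by the tagged ribosomes more or less than other mRNAs. HA and input were scaled separately, so the log2 ratio of HA to input was taken in each pool with 1 CPM added to both values and the median over the 8537 genes of that pool was subtracted. A centred ratio of 0 is thus that of the median gene. The estimate over the 4 pools, with both ages weighted equally, was tested with limma and Benjamini-Hochberg adjustment over all 8537 genes. The HA over input ratio of 4 members, among them Prpf39, Rbm25 and Sf3b1, was above that of the median gene at an adjusted p under 0.05. They stood 2.03-fold to 6.80-fold above it, and no member was called lower. Where HA and input CPM are set side by side below, the step between them depends on the separate scaling and was not tested. Of the 86 members, 4 (4.65%) were thus called higher against 3.29% of all genes, and 0 were called lower against 0.246%, so the share of called members lay near that of all genes. Prpf39 and Rbm25 belong to the U1 snRNP or associate with it, and Sf3b1 is a subunit of the U2 snRNP.

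The members lay above the median gene more often than other genes did. Their median estimate was 0.44 against -0.09 for all genes, and 61 of the 86 (70.9%) were above 0 against 46.8% of all genes. At an unadjusted p under 0.05, 20 members (23.3%) were higher against 11.7% of all genes, and 1 member (1.16%) was lower against 8.07%. In all 4 pools, 21 members (24.4%) were above the median gene against 15.5% of all genes. Below it in all 4 pools were 4 members (Rbm48, Rbm19, Rbm7 and Rbm17, 4.65%) against 12.3%. Rbm48 and Rbm19 are among the genes whose levels are uncertain because of overlapped exons. By pool, the median over the members was 0.39 and 0.30 in the young pools and 0.25 and 0.90 in the old pools. Over all genes the median ratio differed with the input level (0.13 under 10 CPM, -0.41 between 10 and 99 CPM and 0.24 from 100 CPM on), and the background was therefore also read at matched levels. Among genes of at least 100 CPM in input, 21 of 26 members (80.8%) were above 0 against 60.1% of all such genes, and 3 members (11.5%) were called against 11.9%. Between 10 and 99 CPM, 29 of 45 members (64.4%) were above 0 against 36.7%, and 1 member (2.22%) was called against 0.948%. Under 10 CPM, 11 of 15 members (73.3%) were above 0 against 56.5%, and 0 were called against 0%. The members shared libraries and cells and are not independent of each other, so these shares carry no test.

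**Figure D1:**
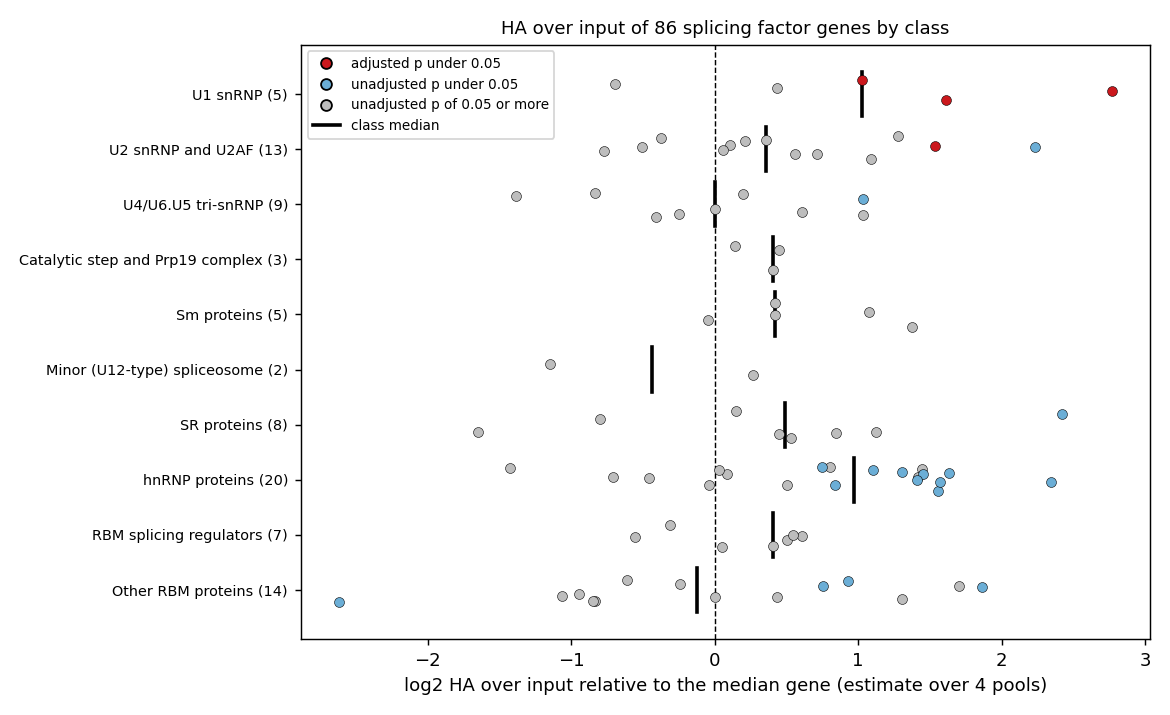
Estimates of log2 HA over input relative to the median gene (x axis) for the 86 splicing factor genes, in rows by class with the number of genes in brackets; each point is a gene, coloured by its p, black bars are class medians and the dashed line is the median gene. The 4 red points lie right of the line, and 16 of the 20 hnRNP genes lie on the same side.

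The U1 snRNP and its associated proteins were represented by 5 genes with a median estimate of 1.02. Prpf39, the counterpart of a yeast U1 snRNP protein, is on chromosome 12 (GRCm38, chr12:65036333-65063386, plus strand). It had 19.6 and 44.4 CPM in the young input libraries and 14.4 and 40.6 CPM in the old. Its HA level was 64.7 and 78.9 CPM in the young HA libraries and 186 and 357 CPM in the old. HA thus exceeded input in every pool, and the centred ratios of 2.09, 1.24, 4.03 and 3.71 for young 1, young 2, old 1 and old 2 were all above the median gene, with both old pools above both young pools. The estimate was 2.77 ± 0.46 (SE, 4 pools), or 6.80-fold, with an adjusted p of 0.0173 in limma.

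Rbm25, a U1-associated regulator of alternative splicing, also lies on chromosome 12 (chr12:83631236-83683123, plus strand) and was one of the most abundant members. In the same order of pools, input was 433, 790.3, 699 and 817 CPM and HA was 425, 1043, 1113 and 1863 CPM. In young 1 the levels were alike, while in the other 3 pools HA was the higher. The centred ratios were 0.39, 0.83, 1.10 and 1.79, the estimate was 1.02 ± 0.23 (2.03-fold), and the adjusted p of 0.0495 in limma was just under the threshold.

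Snrnp70 and Snrpa did not pass the test. Snrnp70, the U1-70K protein at the core of the particle, had 167 and 70.3 CPM in the young input libraries and 33.5 and 52.2 CPM in the old. Its HA levels were 122, 53.7, 28.8 and 100.1 CPM, and its centred ratio was near the median gene in 3 pools and 1.53 in old 2. Snrpa, an RNA-binding protein of the particle, had centred ratios of 0.13, -3.54, 1.98 and -1.34, the widest spread of the class, on input levels of 4.25 to 41.0 CPM.

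Of the 13 genes of the U2 snRNP and U2AF, 10 had estimates above 0, with a median of 0.36, and 1 was called. Sf3b1, the subunit of SF3b that clasps the branch site (chr1:54985169-55027481, minus strand), had input levels of 371, 343, 514 and 504 CPM and HA levels of 676, 767, 781 and 1592 CPM. HA was above input in all 4 pools, most in old 2. With centred ratios of 1.28, 1.59, 1.03 and 2.26, its estimate was 1.54 ± 0.27 (2.91-fold, adjusted p 0.0208 in limma). The remaining SF3b subunits lay between -0.51 (Sf3b3) and 1.09 (Sf3b6), with Sf3b2 at 0.06, Sf3b5 at 0.21 and Sf3b4 at 0.56. Sf3b3 was above the median gene in young 1 only, with ratios of 0.83, -0.96, -0.94 and -0.95.

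The partners of U2AF differed from each other in value. U2af1, the small subunit, which reads the AG at the end of the intron, had only 4.43, 1.68, 2.24 and 5.34 CPM in input and 12.8, 9.70, 8.53 and 27.3 CPM in HA, and its ratios of 1.76, 2.42, 1.98 and 2.76 were high in every pool. Its unadjusted p was 0.0187 and its adjusted p was 0.162 in limma. U2af2, the large subunit, which binds the polypyrimidine tract, was at a similar input level of 8.20, 7.75, 7.94 and 3.21 CPM but had HA levels of 7.70, 4.32, 0.238 and 0.702 CPM, with ratios of 0.33, -0.29, -2.43 and -0.70. The difference between these genes was not tested. Sf3a1 and Sf3a3, the SF3a subunits in both tables, had estimates of 0.36 and 0.11, and the U2 proteins Snrpa1 and Snrpb2 had 1.28 and 0.71. Rbm17 (SPF45), an alternative 3′ splice site factor, was slightly below the median gene in each pool, at -0.56 to -0.18.

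**Figure D2:**
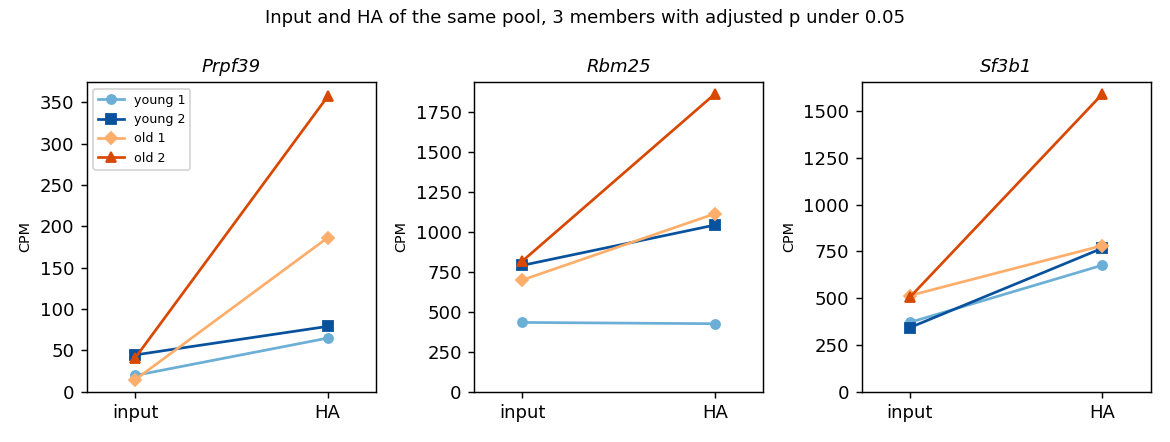
CPM in input and HA (y axis, from 0) for 3 members with an adjusted p under 0.05; each line joins the input and HA library of 1 pool, blue for young and orange for old. Prpf39 and Sf3b1 rise from input to HA in each pool, whereas Rbm25 is level in young 1, and the old 2 pool has the highest HA value in all 3 panels.

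To show the sequence context of these mRNAs, the last cytoplasmic polyadenylation element (CPE) of the longest annotated 3′-UTR was read for these 3 called members. CPEs are the sites that CPEB proteins bind and that set the timing of translation during oocyte maturation. They were searched as TTTTAT or TTTTAAT on the mRNA strand only (overlapping matches were each counted), in GENCODE M21 on GRCm38. The 30 bases around the last CPE follow 5′ to 3′ on the mRNA strand, with the motif in capitals, from chr12:65062637-65062666 (Prpf39, plus), chr12:83682997-83683026 (Rbm25, plus) and chr1:54985222-54985251 (Sf3b1, minus).
Prpf39: gccacagctcatTTTTATgtttgctgatgt
Rbm25: caaaacactgtTTTTAATgttcaaccttga
Sf3b1: ttatattgtatTTTTAATatttgttgtatg

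From the first base of these motifs to the end of the 3′-UTR there were 738 bases in Prpf39, 116 in Rbm25 and 72 in Sf3b1. Prpf39 held 8 such motifs, Rbm25 6 and Sf3b1 9. A 3′-UTR was annotated for 85 of the 86 members and for 7930 of all genes in both tables. At least 1 motif was present in 68 members (80.0%) against 70.7% of all genes, although the members' 3′-UTRs were shorter (median 861 against 1332 bases). Motifs were thus denser in them, at 2.07 per kilobase against 1.44. Among 3′-UTRs of 500 to under 1500 bases, 26 of 34 members (76.5%) and 65.3% of all genes held one.

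The members with more motifs had somewhat higher ratios, as did all genes. The median estimate was 0.20 in the 17 members without a motif, 0.42 in the 29 with 1 to 2, 0.41 in the 25 with 3 to 5 and 0.80 in the 14 with 6 or more. Over all genes it was -0.32, -0.06, 0.12 and 0.09 in the same order. All 4 called members were among the 14 with 6 or more motifs (28.6%), and 4.83% of all genes with 6 or more motifs were called against 2.02% of those without. This comparison was noticed after the calls were known and carries no test, and genes with many motifs also had longer 3′-UTRs (median 3049 bases in these 14 members). Of the 17 members without a motif, 0 were called.

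**Figure D3:**
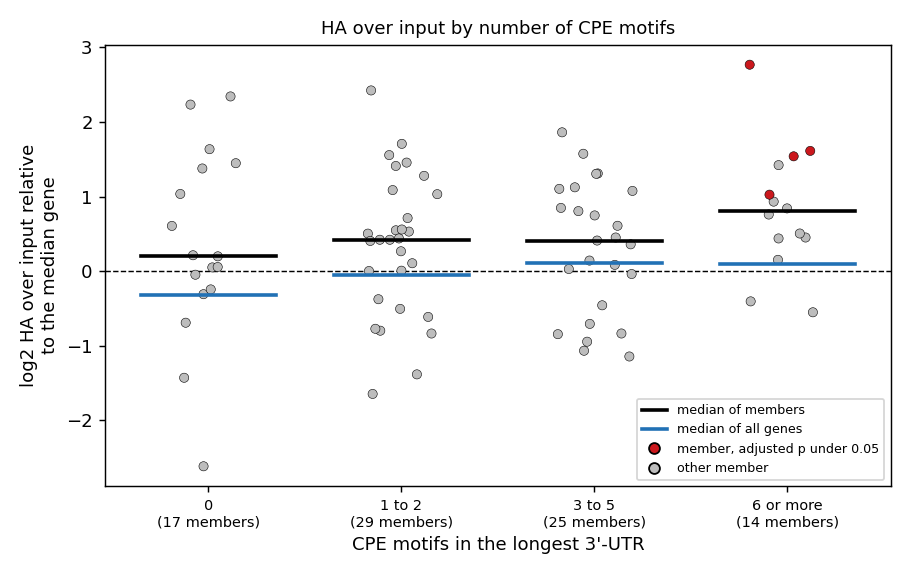
Log2 HA over input relative to the median gene (y axis) for members grouped by the number of CPE motifs in their longest 3′-UTR (x axis, number of members in brackets); points are members, red where the adjusted p was under 0.05, black bars are medians of the members and blue bars medians of all genes. The black bar lies above the blue bar in each group, at 0.20, 0.42, 0.41 and 0.80.

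The U4/U6.U5 tri-snRNP genes were spread around the median gene. Of 9, 5 had estimates above 0, with a median of 0.01, and none was called. Prpf8 was abundant in both fractions, with 636, 657, 706 and 505 CPM in input and 537, 545, 347 and 409 CPM in HA, and its ratios of 0.17, 0.16, -0.60 and 0.30 stayed close to the median gene. Snrnp200, the helicase that unwinds U4 from U6, had 198, 153, 133 and 166 CPM in input and 129, 77.4, 50.9 and 179.5 CPM in HA, with ratios of -0.21, -0.55, -0.94 and 0.71. Prpf6, which bridges the U5 and U4/U6 particles, was the highest of the class by its median, with ratios of 0.54, 1.10, 0.93 and 1.56 and an estimate of 1.03 (unadjusted p 0.0110, adjusted p 0.123 in limma). Prpf38a, a factor of spliceosome activation, was among the lowest, at -0.28, 0.22, -3.01 and -2.46, and its low values were those of the old pools. Prpf38b, a relative of Prpf38a, had -0.34, 0.01, 0.68 and 2.08, with the high values in the old pools. Snrnp27 (1.03), Prpf3 (0.20), Prpf4b (-0.41), the kinase of the tri-snRNP, and Snrnp40 (-0.84) completed the class.

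The 3 genes of the catalytic step and the Prp19 complex had estimates of 0.14 (Prpf18, a second-step factor), 0.41 (Rbm22, which contacts the U6 RNA in the active site) and 0.45 (Prpf19, the ubiquitin ligase that gives the complex its name). Prpf19 was the least reproducible of them. Its input was 29.8, 5.60, 29.7 and 22.8 CPM and its HA was 9.12, 18.1, 5.92 and 105 CPM, so its ratios of -1.19, 1.96, -1.72 and 2.76 ran below and above the median gene within each age.

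Of the Sm proteins, which form the ring around the snRNA of most snRNPs, 5 were measured. Their summed input level was 46.2 to 80.0 CPM, and 4 had estimates above 0. Snrpd1 had 30.2, 18.4, 20.1 and 21.1 CPM in input and 45.0, 47.3, 20.5 and 4.21 CPM in HA, with both old HA libraries below both young ones. Snrpe had the highest median ratio of the class, at 1.71, 0.97, 3.41 and -0.59, and Snrpg the lowest, at -0.23, 0.34, -0.63 and 0.33. Snrpd3 was above the median gene in each pool, at 0.34 to 2.38, on an old 2 input of only 4 reads. Snrpf was low, at 0.502 to 2.76 CPM in input, with an estimate of 0.42, and 85.4% of its exons overlap another gene.

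The minor spliceosome, which removes the rare U12-type introns, was represented by 2 genes. Snrnp48, a protein of the U11 part of the U11/U12 snRNP, had ratios of -0.47, -0.04, 2.50 and -0.93, high in old 1 alone. Rbm48 was below the median gene in every pool, at -0.22, -1.44, -1.07 and -1.85, and did not pass the test (unadjusted p 0.100 in limma). It had 49.7, 40.4, 45.9 and 65.5 CPM in input and 31.7, 10.4, 15.7 and 11.2 CPM in HA. Other genes overlap 29.3% of its exons, so its level is uncertain.

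Of the 8 SR proteins, 6 had estimates above 0, with a median of 0.49, and none was called. Srsf7 was the highest, with 13.0, 5.31, 17.7 and 8.75 CPM in input and 38.0, 43.7, 32.9 and 60.5 CPM in HA. Each HA library was above each input library for this gene, and its ratios of 1.89, 3.25, 1.29 and 3.26 gave an estimate of 2.42 ± 0.72 (5.36-fold), with an unadjusted p of 0.00829 and an adjusted p of 0.113 in limma. Srsf11 was the lowest, at -2.05, -2.54, 0.02 and -2.01, below the median gene in 3 pools and level with it in old 1, where its input was 3.18 CPM against 19.3 to 55.3 CPM elsewhere. Srsf1, a founding SR protein, had 24.6, 12.2, 28.0 and 42.5 CPM in input and 17.7, 32.7, 13.8 and 42.5 CPM in HA, with ratios on either side of 0 (-0.04, 1.78, -0.54 and 0.61). Srsf3 is described with the ages below. Srsf4 (1.12), Srsf6 (0.85), Srsf10 (0.15) and Srsf5 (-0.80) did not pass the test. Srsf6 ranged from 0.119 to 32.4 CPM between the 2 old HA libraries.

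The hnRNP proteins were the largest class, with 20 genes. Their median estimate was 0.97, 16 of 20 were above 0, and 10 (50.0%) had an unadjusted p under 0.05, all of them higher, against 11.7% of all genes. None passed the adjusted threshold. In all 4 pools, 10 of 20 (50.0%) lay above the median gene against 15.5% of all genes. The class median was above 0 in each pool, at 0.99 and 0.38 in the young and 0.47 and 1.69 in the old pools.

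Hnrnpa2b1, which binds nuclear and cytoplasmic RNAs and acts in splicing and RNA transport, had 214 and 229 CPM in the young input libraries and 228 and 248 CPM in the old. In HA it had 456, 435, 237 and 917 CPM. HA was about level with input in old 1 and above it elsewhere, and the estimate was 1.45 ± 0.36 with an adjusted p of 0.0644 in limma, just over the threshold. Hnrnpk, a poly(C)-binding protein, was among the more even of the abundant members, with 192, 171, 175 and 158 CPM in input, 329.7, 219.7, 280.2 and 262 CPM in HA and ratios of 1.19, 0.79, 1.10 and 1.33 (adjusted p 0.0932 in limma). Hnrnpa1, a repressor of exon inclusion, had 26.8, 13.1, 27.9 and 18.0 CPM in input and 43.9, 27.2, 37.9 and 88.0 CPM in HA, and its ratio was 0.86 to 2.83 over the pools. Hnrnpa1 has many processed pseudogenes, so its count is uncertain. Hnrnpu, a large nuclear matrix protein, had 441, 431, 392 and 334 CPM in input and 419, 560.2, 400.1 and 747 CPM in HA, with ratios of 0.34, 0.80, 0.45 and 1.77.

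Hnrnpl, which binds CA-rich RNA, had the highest estimate of the class, 2.34 ± 0.75 (5.07-fold). Its ratios of 2.44, 2.16, 2.36 and 2.40 lay within 0.28 of each other although its input was only 2.94 to 9.36 CPM (unadjusted p 0.0127, adjusted p 0.133 in limma). Its paralog Hnrnpll had no reads in the old 1 HA library, which allows up to 0.0713 CPM, and 6.73 to 13.0 CPM in the other 3, and its estimate was -0.04. Hnrnph1, which binds runs of G, had an estimate of 1.41, and its close copy Hnrnph2 had the lowest of the class, -1.43, with ratios of 0.09, -1.96, -4.47 and 0.62. Reads that fit both Hnrnph1 and Hnrnph2 could have been split or dropped in counting. Hnrnpdl (1.30), Hnrnpf (1.63), Hnrnph3 (1.57) and Hnrnpul2 (0.75) were the others with an unadjusted p under 0.05. Hnrnpm (1.45), Hnrnpr (1.42), Hnrnpc (0.80), Hnrnpd (0.50), Hnrnpa3 (0.08), Hnrnpab (0.03), Hnrnpa0 (-0.46) and Hnrnpul1 (-0.71) did not reach it.

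**Figure D4:**
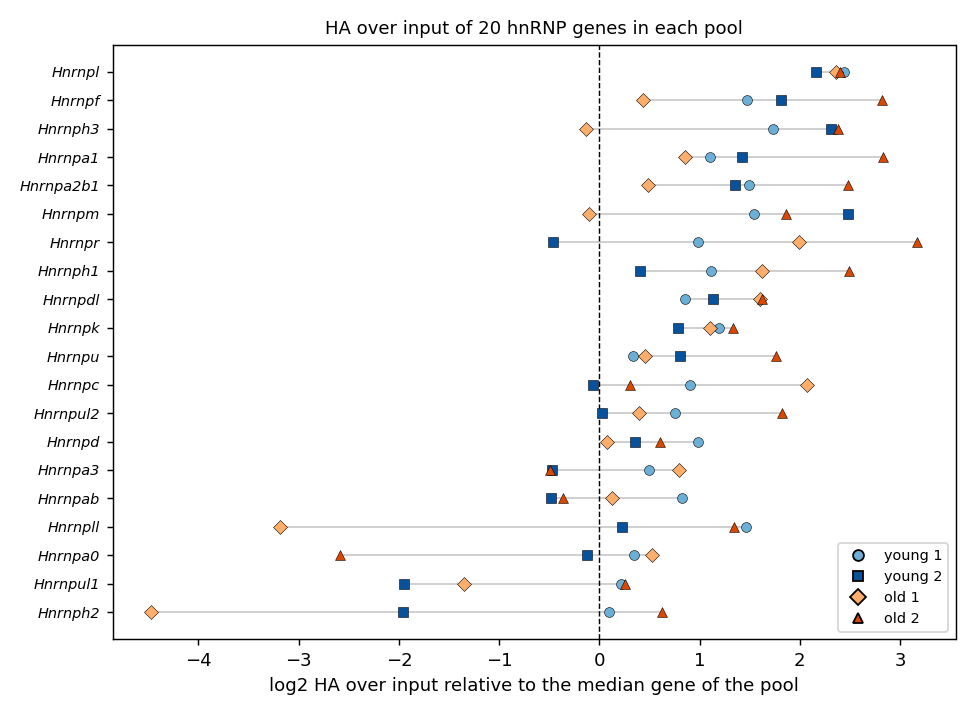
Log2 HA over input relative to the median gene of the pool (x axis) for the 20 hnRNP genes in rows ordered by estimate; each symbol is 1 pool, blue for young and orange for old, and grey lines span the 4 pools. For 10 genes all 4 symbols lie right of the dashed line at 0, and the symbols of Hnrnpl and Hnrnpk lie close together.

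The RBM proteins that regulate alternative splicing were 7, with a median estimate of 0.40 and none with an unadjusted p under 0.05. Rbm39, a partner of U2AF, had 203, 104, 108 and 122 CPM in input and 133, 138, 123 and 155 CPM in HA, had the highest median ratio of the class, and was below the median gene in young 1 only (-0.19, 0.83, 0.61 and 0.94). Rbm47 had the lowest median ratio, at 0.48, -2.16, -2.08 and 1.56. Rbm38 (0.50), Rbm20 (0.61), Rbm5 (0.40), Rbm6 (-0.31) and Rbm45 (0.05) lay between -0.31 and 0.61. The other RBM genes, with roles outside the spliceosome or not assigned, were 14, with a median of -0.12. Rbm15, of the complex that writes m6A on RNA, had ratios of 1.90, 0.44, 1.68 and 3.43 (unadjusted p 0.0117), and Rbm18 and Rbm26 also had an unadjusted p under 0.05 above the median gene, with estimates of 0.93 and 0.76. Rbm44, a germ cell protein, had the highest median ratio, on values from -1.54 (old 1) to 4.28 (old 2). Rbm19, a nucleolar protein of ribosome production, had the lowest ratios, -0.99, -2.16, -3.54 and -3.78, with 9.64, 14.2, 15.0 and 20.6 CPM in input and 3.04, 1.53, 0.0238 and 0.0370 CPM in HA. Its estimate was -2.61 ± 0.74, with an unadjusted p of 0.00645 and an adjusted p of 0.101 in limma. Another gene overlaps 27.8% of the exons of Rbm19, so its level is uncertain. Rbm27 (0.44), Rbm12b2 (1.31), Rbm12b1 (-0.61), Rbm33 (-0.95), Rbm28 (-1.07), Rbm3 (-0.84), Rbm7 (-0.84), Rbm34 (0.00) and the pseudogene Rbm6-ps1 (-0.24) did not reach an unadjusted p under 0.05.

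The 4 calls depended on the fit and on the pools. All 4 were lost with eBayes without a trend, without centring and without either young pool, while 27 members (31.4%; 25 higher and 2 lower, 10 of them hnRNP genes) were called without old 1 against 21.8% of all genes, and 8 (9.30%, all higher) without old 2 against 10.1%. The number of all genes called higher, 281, moved with these settings to 0 without a trend, 2 without young 1, 26 without young 2, 1074 without old 1 and 554 without old 2. Rbm25 was also lost with a pseudocount of 5 CPM, a filter at 10 CPM, median ratio scaling and without pairing HA and input by pool. The direction of the 4 estimates was higher in all 13 alternatives.

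Total mRNA was compared between the ages to ask whether levels of these mRNAs differed before ribosome loading was considered. In limma on log2(CPM + 1), 0 of 86 members had an adjusted p under 0.05, against 0% of the 10530 genes called higher and 0.0095% called lower. At an unadjusted p under 0.05, 1 member (1.16%) was higher against 2.71% of all genes and 1 (1.16%) was lower against 3.48%. On the recovered reads, edgeR's quasi-likelihood test called 0 members and 0 of all genes, its likelihood ratio test 0 members against 0.475% of all genes, and DESeq2 0 members against 1.08%. The median member differed by 0.05 on the log2 scale (old minus young) against -0.03 for all genes, and 46 members (53.5%) were above 0 against 48.6%.

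The members nearest to a difference in input were few. Snrnp70 had 119 ± 68.4 CPM (mean ± SD, n = 2) in young and 42.8 ± 13.2 CPM in old oocytes, and young 1 alone held 167 CPM. Its log2 difference was -1.35 ± 0.52 (unadjusted p 0.0315, adjusted p 0.778 in limma). Sf3b6, an SF3b subunit close to the branch site, was hardly counted, with 1.15, 0, 4.85 and 5.70 CPM, and the 0 in young 2 allows up to 0.0788 CPM (log2 difference 2.10, unadjusted p 0.0449). Sf3b1 was higher in both old input libraries by 0.51 and Srsf10 by 0.86, and Snrpa1 and Rbm17 were lower in both, by -1.86 and -0.70. None of these 4 reached an unadjusted p under 0.05. In 12 members (14.0%) both old input libraries were above both young ones, against 16.4% of all genes, and in 18 (20.9%) both were below, against 18.9%.

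Ribosome loading, the HA level itself, was compared between the ages in the same way. No member passed the adjusted threshold in limma, as 0% of the 8898 genes did in either direction. At an unadjusted p under 0.05, 6 members (6.98%) were higher in old oocytes against 4.28% of all genes, and 3 (3.49%) were lower against 10.5%. The median member differed by -0.07 against -0.14 for all genes, and 40 members (46.5%) were above 0 against 45.9%. Both old HA libraries were above both young ones in 15 members (17.4%, against 17.2% of all genes) and below them in 17 (19.8%, against 24.7%). The split of higher to lower, 6 to 3, turned with the scaling, to 1 to 6 with libraries rescaled to the same sum, which moved the median gene by -0.54, to 7 to 1 with median ratio scaling, which moved it by 0.18, and to 2 to 1 with quantile normalization. On the recovered reads, edgeR's quasi-likelihood test called 0 members (6 higher and 1 lower before adjustment), its likelihood ratio test called 0 (5 and 3) against 3.32% of all genes, and DESeq2 called 2 (2.33%), Hnrnpr and Rbm34, against 5.71%.

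Hnrnpr, an hnRNP with roles in neuronal RNA transport, had the smallest p. Its HA level was 14.7 and 10.9 CPM in the young HA libraries and 119.6 and 94.5 CPM in the old, a difference of 2.98 ± 0.87 on the log2 scale (unadjusted p 0.0120, adjusted p 0.297 in limma, and adjusted p 0.0108 in DESeq2). Its input was 9.54, 20.9, 39.9 and 15.1 CPM, with overlapping ages. Rbm34, the other gene that DESeq2 called, had 0.556, 4.37, 5.70 and 115 CPM in HA and 9.46, 12.6, 4.81 and 27.7 CPM in input, and its old 2 HA library was far above old 1.

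Prpf39 and Rbm18 were higher in old HA and level in input. The HA level of Prpf39 was 71.8 ± 10.0 CPM in young and 271 ± 121 CPM in old oocytes (mean ± SD, n = 2), a log2 difference of 1.84 ± 0.59 (unadjusted p 0.0174, adjusted p 0.297 in limma). Without old 1 its adjusted p was 0.0436. Rbm18, whose role is not established, had 228 and 267 CPM in the young HA libraries and 566 and 691 CPM in the old, a difference of 1.34 ± 0.41 (unadjusted p 0.0144). Its 4 input libraries held 246 to 343 CPM, and the ages overlapped. Prpf38b had 175, 334, 515 and 1219 CPM in HA, with old 2 highest (unadjusted p 0.0214), and Hnrnph1 had 174, 115, 291 and 381 CPM (unadjusted p 0.0433). In both genes, both old libraries were above both young ones. Their adjusted p in limma was 0.297 and 0.329.

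Rbm19, Rbm12b1 and U2af2 were lower in old HA, at low levels. Rbm19 had 1 read in each old HA library and 322 reads in the 2 young ones together, a young to old ratio of 83.0 (95% interval 22.8 to 688, exact, counting error only), while its input was 11.9 ± 3.24 CPM in young and 17.8 ± 3.96 CPM in old oocytes. Its log2 difference in HA was -1.63 ± 0.53 (unadjusted p 0.0184, adjusted p 0.297 in limma), and its adjusted p was 0.0257 without young 2, where it was the 1 member called (1.16%) against 7.13% of all genes. Without old 1, limma called Prpf38b, Prpf39, Rbm34 and Rbm44 (4.65% of the members) against 4.42% of all genes. Rbm12b1 had 8.06, 4.94, 0.143 and 0.813 CPM in HA (unadjusted p 0.0409), and reads it shares with the near-identical Rbm12b2 are uncertain. U2af2 had 7.70 and 4.32 CPM in the young HA libraries and 0.238 and 0.702 CPM in the old (unadjusted p 0.0440), and its input was level except for old 2 (8.20, 7.75, 7.94 and 3.21 CPM). These 3 genes had means under 10 CPM in both fractions except for Rbm19 input, and a filter at 10 CPM removed all of them.

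**Figure D5:**
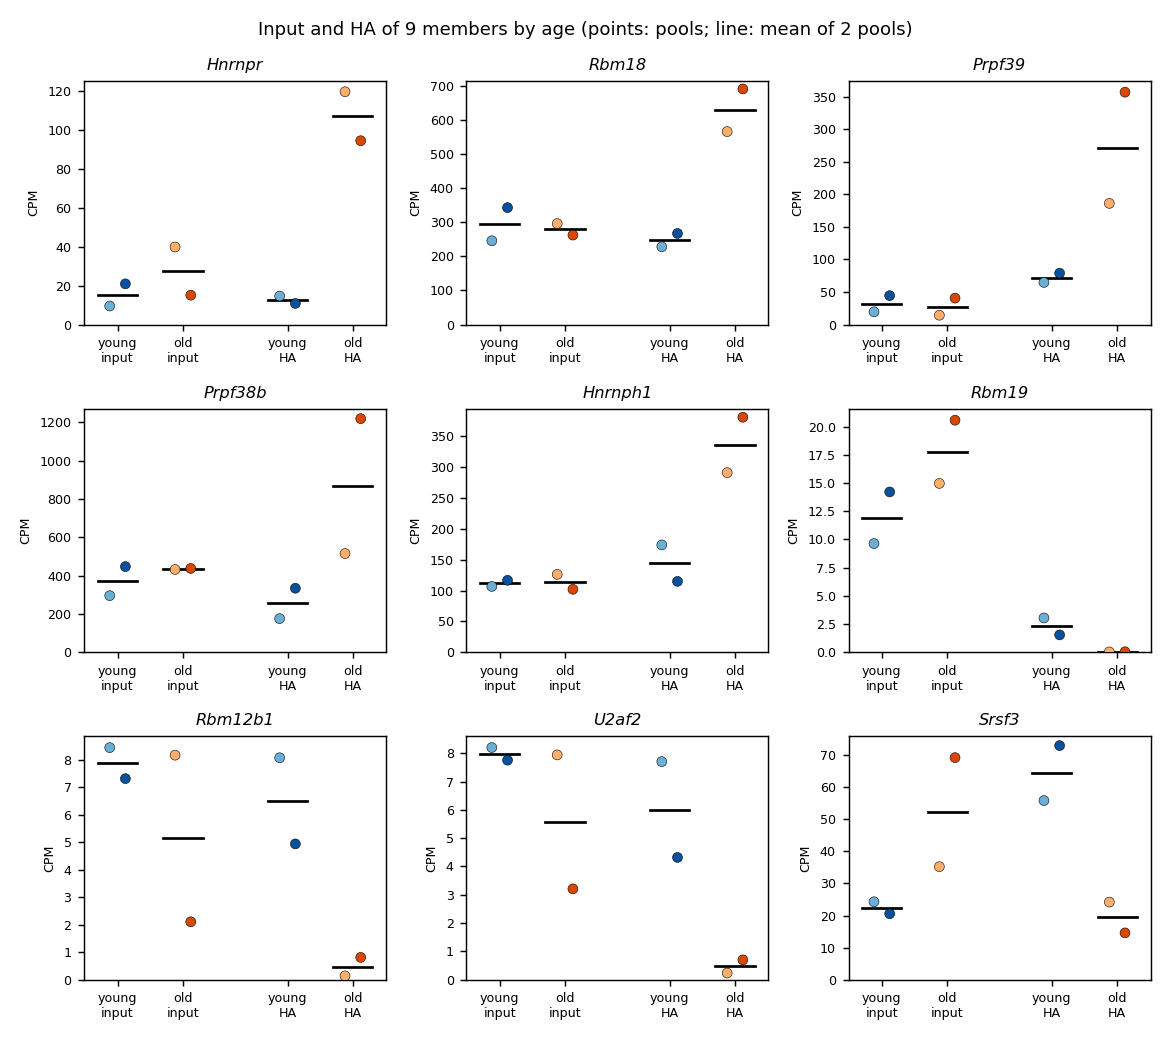
CPM (y axes, from 0, scaled to each gene) in young and old input and HA libraries for 9 members; each point is 1 pool, blue for young and orange for old, and black lines are the means of 2 pools. Both old HA points lie above both young HA points in the first 5 panels and below them in the last 4, whereas the input points overlap between the ages in all panels but those of Rbm19 and Srsf3.

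Translation efficiency (TE), the log2 ratio of HA to input in each pool, was compared between the ages to relate loading to the level of each mRNA. No member passed the adjusted threshold in limma, as 0% of the 8537 genes did. At an unadjusted p under 0.05, 3 members (3.49%) were higher in old oocytes against 2.98% of all genes and 1 (1.16%) was lower against 3.51%. The quasi-likelihood test of edgeR with HA and input in 1 model also called 0 members, with 3 higher and 1 lower before adjustment. Above 0 were 42 members (48.8%) against 47.1% of all genes, both old pools were above both young ones in 14 (16.3%) against 17.2%, and both were below in 14 (16.3%) against 20.4%, so that the shares of members were near those of all genes. The 3 higher were Prpf39, with a difference of 2.11 ± 0.92, Rbm18 with 1.40 ± 0.52 and Prpf38b with 1.45 ± 0.56, at unadjusted p of 0.0493, 0.0252 and 0.0300. For each, the adjusted p was 0.739 in limma.

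Srsf3, a small SR protein that also links splicing to mRNA export, was the member that was lower. Its HA to input ratio was 2.30 and 3.55 in young and 0.687 and 0.211 in old oocytes. Its input was 24.3, 20.6, 35.2 and 69.2 CPM, higher in both old libraries, and its HA was 55.8, 72.9, 24.2 and 14.6 CPM, lower in both, so both fractions contributed to the difference of -2.82 ± 1.19 (unadjusted p 0.0427). Prpf38a and Snrnp40 came next among the lower, at -2.80 and -1.94, without reaching an unadjusted p under 0.05. By class, the median TE difference was 0.98 in the U1 snRNP genes, all 5 of which were above 0 against 47.1% of all genes. It was -0.88 in the SR proteins, of which 2 of 8 (25.0%) were above 0. In the other classes it lay between -0.63 and 0.36, against -0.10 for all genes. In the U1 and in the SR class, 1 gene each had an unadjusted p under 0.05 in limma. These class medians are descriptions of 2 against 2 pools, in classes chosen with earlier results of these data known.

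Genes of the same pathway with other names were read beside the members. Of 68 further core spliceosome genes, 58 were in both tables. Their median HA over input was 0.06, 31 were above 0, and 1 was called higher (1.72%, against 3.29% of all genes) and 0 lower. That gene was Smu1, a factor of spliceosome activation, with 215, 183, 169.7 and 287 CPM in input, 453, 514, 352 and 624 CPM in HA and ratios of 1.49, 1.91, 1.47 and 1.72 (adjusted p 0.0168 in limma). Of 35 further splicing regulators, 29 were in both tables, with a median of 0.40 and 23 above 0. Taf15 and Ddx5, RNA-binding proteins that act in transcription and splicing, were called higher (2 of 29, 6.90%), with estimates of 2.04 and 1.87 (adjusted p 0.0257 and 0.0246 in limma). Between the ages, 0 genes of either list had an adjusted p under 0.05 in input, HA or TE. Before adjustment, 3 core genes (5.17%) and 2 regulators (6.90%) had a p under 0.05 and were higher in old HA against 4.28% of all genes, and 2 core genes (3.45%) and 1 regulator (3.45%) were lower against 10.5%.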

How the data were processed

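The 8 libraries (4 HA and 4 input) were analysed from 1 table per fraction. The deposited tables hold a signal in CPM. To make it, the authors trimmed reads with Trimmomatic 0.36, aligned them to GRCm38 with HISAT2, counted them per gene (GENCODE M11, strand ignored) with HTSeq, removed low genes and applied TMM in edgeR to HA and input apart. Counting by whole gene sums all isoforms and includes intronic reads. The Methods state a filter at 10 CPM in at least 2 libraries, which the tables do not follow, since lower genes are present. Each value was a whole multiple of 1 read (tolerance 0.01 read, 100% of values), and these recovered reads were used for edgeR 4.0.16 and DESeq2 1.42.0 as alternatives. All per-sample columns were used.

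The main tests were two-sided limma 3.58.1 fits (lmFit, eBayes with trend, R 4.3.3) on log2(CPM + 1), which understates the change of low genes, adjusted by Benjamini-Hochberg across the whole table, at a threshold of 0.05. For ratios, the trend was fitted on the mean level of the gene over HA and input. The HA and input libraries were paired by pool, since the Methods take both from 1 lysate, although over all genes their deviations from the age mean correlated only at 0.11 (young) and 0.01 (old). Old and young pools were not paired. For 1 gene, the smallest two-sided p of an exact permutation test over these pools is 0.333. The labels do not say from how many animals the pools came, so p-values measure the spread between pools. Identifiers matched GENCODE M21 for 99.7% (HA) and 99.8% (input) of genes, and 3′-UTRs, exon lengths and positions were taken from that release. Classes, lists and the rule for named genes were chosen with earlier results of these data known. Named were 20 genes fixed for their roles, of which 15 were in both tables, the members with an adjusted p under 0.05 (at most 10 per direction), the 3 with the smallest p per direction in each comparison, the highest and lowest median ratio of each class and members at or under 3 reads in both libraries of a group. Rbm34, Smu1, Taf15 and Ddx5 were named after their values were seen, and the remaining members are given with an estimate or with their values by pool, except 1 that is counted but not reported here. The fits were also run on simulated data in which every pool had the same spread. Since the old pools were wider here, that run does not show how the fits behave with such unequal pools. Tables were handled with Python 3.11.15, numpy 2.4.6, pandas 2.3.3 and matplotlib 3.10.9.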

Additional observations from a re-analysis of the deposited data

How the results depend on the processing

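For the members called, 0 were found in input and in TE under every alternative run. In HA, 0 members were called by limma with all pools and by both edgeR tests (0 of all genes by the quasi-likelihood and 295 by the likelihood ratio test), 2 by DESeq2 (508 of all genes), and 0 to 4 when a pool was left out (0 to 634 of all genes). For HA over input, 4 members were called in the main fit, 2 with a pseudocount of 5 CPM, 0 with eBayes without trend, 0 without centring, and 0 to 27 when a pool was left out (4 to 1858 of all genes). Quantile normalization called 6 members (6.98%) for HA over input, among them the hnRNP genes Hnrnpa2b1 and Hnrnph1, against 496 of all genes (5.81%). A fit that leaves out a pool takes the lone pool of its age to vary like the other age.

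The median log2 difference of the members, old against young, moved in input from 0.05 to -0.14 with the libraries scaled to equal sums, and to between -0.15 and 0.044 without 1 pool. In HA it moved from -0.07 to -0.69 with equal sums, and to between -0.48 and 0.15 without 1 pool. In TE it moved from -0.02 to -0.42 with equal sums, and to between -0.25 and 0.30 without 1 pool. The median of HA over input moved from 0.44 to -0.029 without centring, which shifts every gene alike and by construction lowered the median of all genes to -0.56. With equal sums the median of all genes moved too, from -0.03 to -0.19 in input, from -0.14 to -0.68 in HA and from -0.10 to -0.48 in TE. The causes of the moves without 1 pool were not tested.

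Genes near the median gene in HA over input changed sign. With a pseudocount of 5 CPM, Prpf8 was at -0.13. With the filter at 10 CPM, Prpf8 was at -0.20 and Prpf18 at -0.062, and with equal sums Prpf8 was at -0.010. Without pairing, Snrpg was at 0.13. Without centring, Prpf18 was at -0.33, Rbm22 at -0.057, Snrnp48 at -0.20, Srsf1 at -0.016, Snrpd1 at -0.046, Snrnp70 at -0.029, Prpf8 at -0.46 and Prpf19 at -0.016. When 1 pool was left out, the estimates ran from -0.22 to 0.50 for Prpf18, -0.67 to 1.57 for Prpf19, -0.22 to 0.23 for Prpf8, -0.081 to 0.90 for Rbm22, -1.46 to 0.36 for Rbm47, -0.66 to 0.17 for Snrnp200, -0.59 to 1.12 for Snrnp48, -1.61 to 0.22 for Snrpa, -0.062 to 0.90 for Snrpd1, -0.29 to 0.19 for Snrpg and -0.0058 to 0.91 for Srsf1. In each comparison of the ages, only the genes named for the smallest p per direction in it were followed over the alternatives. These genes kept their sign in every alternative that retained them.

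The replicate numbers of old and young pools mark no shared batch in the labels, and same-numbered pools correlated at 0.03 (input), 0.08 (HA) and 0.01 (TE) in their deviations, so the numbers did not pair them. With the replicate number as a block, 0 members were called in input, HA and TE. Without pairing HA and input by pool, the replicate block of that comparison, 5 members were called.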
